A study of Mus musculus with 12 samples.

Results

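CD8+ T cells from tumours given the radiotherapy mode labelled CRT were compared with CD8+ T cells from nontreated tumours, over every probe of a gene panel for T cell exhaustion. The comparison sets the 3 CRT samples against the 3 Nontreated samples, out of 12 samples in all, over 773 probes. The spread behind each SE and p-value was estimated from all 12 samples. MC38 colon carcinoma cells of mouse origin had been grown in C57BL/6J mice. Per the labels, radiotherapy delivered 20 Gy to tumours of 40 to 100 mm3, and cells from the digested tumours were enriched on the leukocyte antigen CD45 before CD8+ T cells were sorted. The samples labelled Nontreated are the controls, and the other 6 samples belong to 2 further radiotherapy modes, SRT and SRT-like. The 3 abbreviations are not spelled out in the labels, which also leave out the dose schedule of each mode, the days between irradiation and harvest, and the age and sex of the mice. Whether each sample came from a mouse of its own is not stated, so the p-values reflect the spread among these samples alone, which may be technical. Lysates of 1000 to 5000 cells per microlitre were read on the NanoString nCounter platform, which counts colour-barcoded probes bound to RNA molecules without amplification. Values are log2 of normalized probe counts as the authors deposited them, so that a difference of 1 is a doubling.

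CD8+ T cells that stay in a tumour meet their antigen again and again, and pass into a state called exhaustion. In that state inhibitory receptors such as PD-1, TIM-3 and LAG-3 are high, the transcription factor TOX holds the programme in place, and a stem-like subset that depends on TCF-1 renews the rest. Type I interferons act on these cells through the receptor IFNAR, which activates JAK kinases. A transcription factor complex that includes IRF9 then binds promoter elements of antiviral genes, among them the Ifit, Oas, Mx and Rsad2 genes. Interferon gamma, made by the T cells themselves, acts through a receptor of its own on an overlapping set of genes.

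CRT samples differed from Nontreated samples mainly in the antiviral genes that type I interferon induces. Of 773 probes, 23 rose in CRT (2.98%) and 1 fell (0.129%) at an adjusted p under 0.05 (limma, Benjamini-Hochberg over all 773 probes). These calls rest on a spread shared with the SRT and SRT-like samples. With only the 6 samples compared in the fit, 0 probes passed. Antiviral interferon effectors made up 13 of the 23, and 12 of them were above background in every sample of CRT or of Nontreated. The remaining effector, Gbp2b, was above background in none of the 6 samples and is also listed among genes induced mainly by interferon gamma. Chemokine receptor genes Cxcr3 and Ccr1, the co-stimulatory ligand gene Cd86, the cytokine receptor gene Il10ra, and Casp8, Chek1 and Nfe2l2 rose as well, by 0.74 to 1.25 on the log2 scale. The only gene that fell was Ptpn6, which encodes SHP-1, a phosphatase that dampens T cell receptor signals. None of 52 probes with a Nontreated mean above 10, which include Pdcd1, Lag3, Tigit and Ctla4, passed by limma, and their median difference was 0.05.

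In all 24 probes past the threshold the 3 CRT samples lay wholly on one side of the 3 Nontreated samples, as the plot of single samples shows. Such separation was common across the panel. CRT lay above in 119 probes (15.4%) and below in 17 (2.2%). At an unadjusted p under 0.05, 108 probes were higher (14%) and 11 lower (1.42%).

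**Figure D1:**
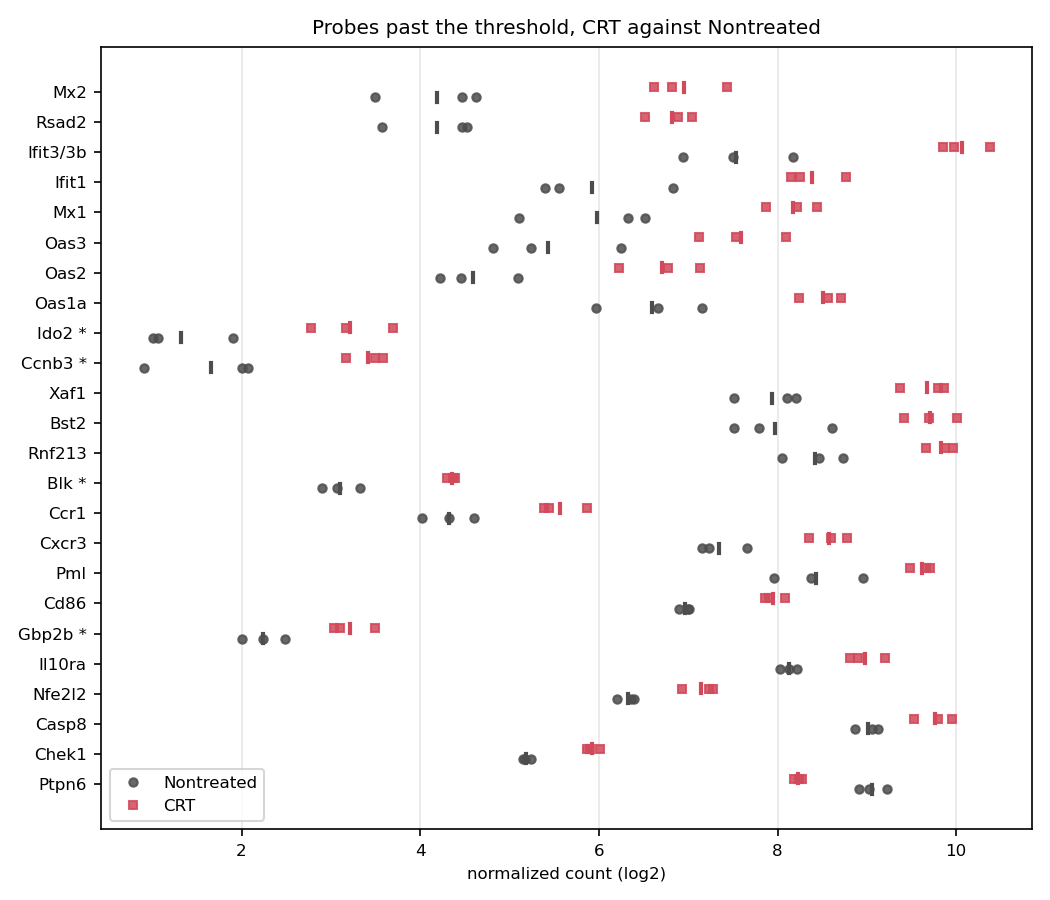
Normalized counts on the log2 scale (x axis) for the 24 probes with an adjusted p under 0.05 (rows), sorted by difference, in the 3 Nontreated samples (grey circles) and the 3 CRT samples (red squares). Vertical ticks are group means, and asterisks mark the 4 probes that were not above background in every sample of either group. The groups do not overlap in any row, and Ptpn6 is the only row with CRT on the left.

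Background moved with the comparison and is given before the results. It was read from 26 probes whose genes belong to other tissues or a virus. Their mean plus 2 SD in each sample set the level that another probe had to pass to count as above background there. Those probes had a median difference of 0.58, with 23 of 26 higher in CRT. Their mean log2 values were 2.46, 2.57 and 3.82 in Nontreated replicates 1 to 3 and 3.22, 3.64 and 3.70 in CRT replicates 1 to 3. The recovered molecule totals were 366987, 467904 and 118694 in Nontreated and 299512, 160373 and 160828 in CRT, so the shallow samples had the high background. Nontreated replicate 3 stood apart from the other controls. It lay at 8.95 on the first principal component (36.3% of the variance), where the other controls lay at -15.9 and -15.3 and CRT samples at -1.23, 6.81 and 9.22. Over the 454 probes above background in every CRT or every Nontreated sample, the median difference was 0.12, against 0.51 over the other 319 and 0.26 over all 773. With each sample centred on its median, the median over all probes was -0.07. Changes of about this size in a list of genes are therefore read beside those medians. Counts of calls in a list are read beside the shares of all probes, 2.98% higher and 0.129% lower. At such shares, 0 or 1 call in a list of this panel's sizes does not set the list apart.

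**Figure D2:**
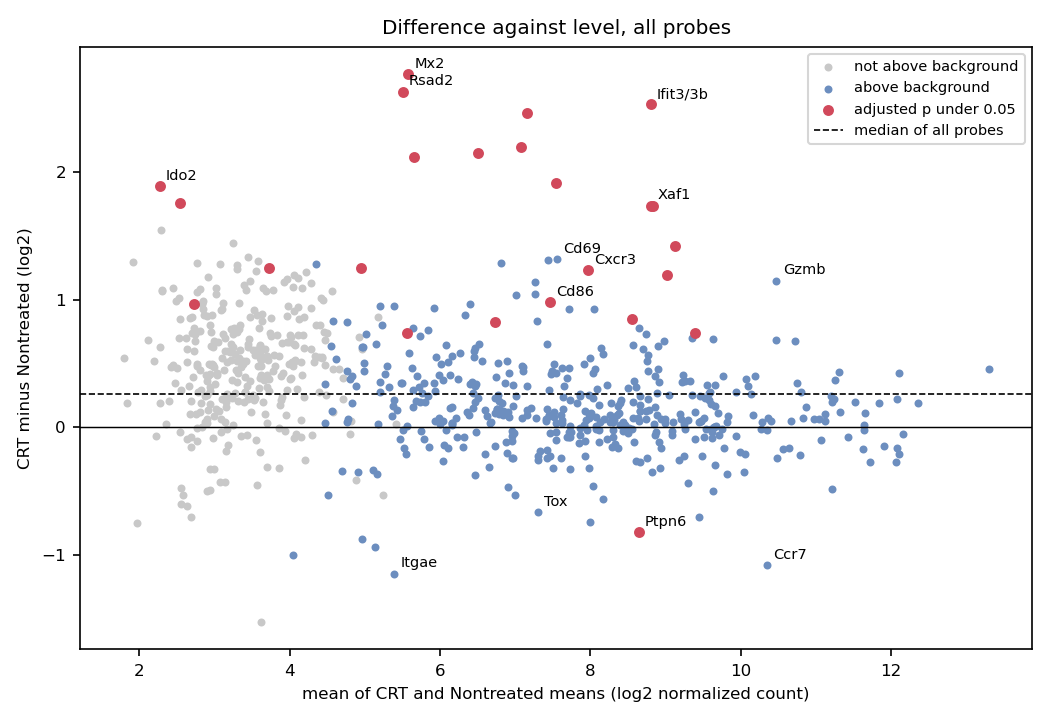
Difference between CRT and Nontreated means (y axis, log2) against the mean of both group means (x axis, log2 normalized count) for 773 probes. Grey points were not above background, blue points were above it in every sample of CRT or of Nontreated, red points had an adjusted p under 0.05, and the dashed line is the median of all probes, 0.26. Grey points spread mostly above 0, and the largest differences among blue and red points belong to Mx2 and Rsad2.

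The sorted cells carried the genes of CD8+ T cells in both groups. Cd8a, the CD8 alpha chain, read 10.80, 10.87 and 10.53 in Nontreated and 10.56, 10.53 and 10.62 in CRT. Cd3e, a signalling chain of the T cell receptor complex, read 10.61, 10.61 and 10.73 against 10.43, 10.30 and 10.70. Both probes overlapped between the groups, with differences of -0.16 ± 0.16 and -0.17 ± 0.16 (SE from the fit of all 12 samples, n = 3 per group). Cd8b1, the CD8 beta chain, was at 0.20 (adjusted p = 0.775 by limma) and at -0.13 with median centring. The monocyte markers Csf1r and Cd14, the T helper marker Cd4 and the B cell marker Ms4a1 exceeded background in 0 of these 6 samples. Other genes of such cells did exceed it, in 7 of 17 macrophage and monocyte genes, 5 of 15 B and plasma cell genes and 3 of 11 CD4 and regulatory T cell genes, and class II H2-Aa ranged from 6.84 to 9.41.

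Promoters of the called interferon effectors are shown first because these genes moved together, and because the interferon-activated complex is known to bind elements with the bases GAAA, a gap of 2 free bases, and GAAA again. That motif was searched on both strands in RefSeq promoters of GRCm38.p6, from 250 bases before to 50 after each gene's start. Of the 13 effectors past the threshold, 10 had an entry and 7 of these held the motif, against 35 of 576 panel genes with an entry (6.08%) and 1131 of 32851 promoters in the table (3.44%). Both wider counts include these effectors, whose list was chosen with earlier results of these data known. A match is only a description of these letters, and binding was not measured. Capitals mark the matches, read 5′ to 3′ on the gene's own strand, in the 4 promoters whose genes had the smallest p among those with an entry.
Rsad2, chr12:26456403-26456702, minus strand, 1 match: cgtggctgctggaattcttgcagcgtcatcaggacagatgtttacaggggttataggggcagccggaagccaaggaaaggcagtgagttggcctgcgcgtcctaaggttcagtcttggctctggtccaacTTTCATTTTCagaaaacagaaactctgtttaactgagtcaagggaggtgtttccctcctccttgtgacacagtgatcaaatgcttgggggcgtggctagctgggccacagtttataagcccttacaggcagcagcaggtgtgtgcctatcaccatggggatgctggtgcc
Ifit3, one of the 2 genes of the probe Ifit3/3b, chr19:34583279-34583578, plus strand, 2 matches: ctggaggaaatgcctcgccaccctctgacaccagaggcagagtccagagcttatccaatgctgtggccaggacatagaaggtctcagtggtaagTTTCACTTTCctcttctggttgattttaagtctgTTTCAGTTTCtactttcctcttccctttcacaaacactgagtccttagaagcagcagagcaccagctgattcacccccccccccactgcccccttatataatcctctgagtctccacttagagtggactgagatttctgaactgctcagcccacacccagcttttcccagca
Oas1a, chr5:120907476-120907775, minus strand, 2 overlapping matches: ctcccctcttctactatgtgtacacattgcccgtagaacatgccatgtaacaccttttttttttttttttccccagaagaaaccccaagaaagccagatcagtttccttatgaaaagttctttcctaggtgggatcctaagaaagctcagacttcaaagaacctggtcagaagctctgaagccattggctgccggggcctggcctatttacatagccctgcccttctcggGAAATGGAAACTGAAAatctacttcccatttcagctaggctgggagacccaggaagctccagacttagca
Xaf1, chr11:72301379-72301678, plus strand, 0 matches in this window: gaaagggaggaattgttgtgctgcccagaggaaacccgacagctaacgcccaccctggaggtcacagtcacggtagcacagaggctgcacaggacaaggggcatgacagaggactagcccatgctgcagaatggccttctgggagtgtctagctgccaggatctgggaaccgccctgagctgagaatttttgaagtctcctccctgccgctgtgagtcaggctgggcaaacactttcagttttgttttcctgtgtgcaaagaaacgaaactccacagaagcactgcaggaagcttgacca
The match on Rsad2 and both matches on Ifit3 lie on the opposite strand, so that they print as the reverse complement of the motif. Ifit1 and Bst2 each held 2 matches, and Oas3 and Gbp2b 1 each.

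Genes that block viral RNA and its translation rose. Ifit1, whose protein binds foreign RNA ends, read 5.55, 6.83 and 5.40 in Nontreated and 8.16, 8.76 and 8.25 in CRT. Ifit3/3b, a probe that cannot tell its 2 genes apart, read 6.94, 8.17 and 7.50 against 9.85, 10.38 and 9.97. The lowest CRT sample lay above the highest control by more than 1 unit for both probes. Ifit1 rose 5.52-fold (2.46 ± 0.42 SE, adjusted p = 0.0151) and Ifit3/3b rose 5.78-fold (2.53 ± 0.39, adjusted p = 0.0151, both limma). Nontreated replicate 2 was the highest control for each of them.

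Oligoadenylate synthetases make the second messenger that switches on the RNA-degrading enzyme RNase L. Oas1a, one of them, read 5.96, 6.66 and 7.15 in Nontreated and 8.24, 8.56 and 8.71 in CRT. Oas2 read 4.23, 4.46 and 5.09 against 6.22, 6.78 and 7.14, and Oas3 read 4.81, 5.24 and 6.25 against 7.12, 7.54 and 8.10. The groups did not overlap in any of the 3 genes, and the highest control of each, Nontreated replicate 3, still lay below the lowest CRT sample. The increases were 1.91 ± 0.33 for Oas1a, 2.12 ± 0.39 for Oas2 and 2.15 ± 0.45 for Oas3, or 3.76-fold to 4.44-fold, with adjusted p-values of 0.0151 to 0.0247 by limma.

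Mx GTPases trap viral nucleocapsids, and viperin, the product of Rsad2, makes a chain-terminating nucleotide. Mx1 read 5.10, 6.51 and 6.33 in Nontreated and 7.87, 8.45 and 8.21 in CRT, a rise of 2.20 ± 0.45. Mx2 read 3.49, 4.62 and 4.46 against 6.62, 6.82 and 7.44, and Rsad2 read 3.57, 4.53 and 4.46 against 6.52, 7.05 and 6.89. Nontreated replicate 1 was the lowest of all 6 samples for each of the 3 genes. Mx2 was above background in 1 of 3 controls and Rsad2 in 2 of 3, so that their folds of 6.80 and 6.20 rest on control values that partly lie within background. In molecules, Rsad2 was counted 19, 44 and 11 times in the controls and 112, 82 and 69 times in CRT. Rsad2 had the smallest p of the panel (2.63 ± 0.35, adjusted p = 0.011 by limma) and passed in 21 of 23 alternative settings.

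Other interferon-induced effectors act on membranes, on nuclear bodies or on cell death. Bst2, which encodes the virus tether tetherin, read 7.79, 8.61 and 7.51 in Nontreated and 9.70, 10.01 and 9.42 in CRT. Xaf1, which promotes apoptosis, read 7.51, 8.11 and 8.20 against 9.37, 9.87 and 9.79. Both rose by 1.74 (SE 0.31 and 0.29), and no control reached the lowest CRT sample. Rnf213, a large ubiquitin ligase that coats intracellular bacteria, read 8.05, 8.73 and 8.46 against 9.66, 9.88 and 9.96. Pml, the scaffold of PML nuclear bodies, read 7.96, 8.96 and 8.37 against 9.49, 9.66 and 9.71. Rnf213 rose by 1.42 ± 0.27 and Pml by 1.19 ± 0.25, the smaller changes among these effectors. Gbp2b, which encodes a guanylate-binding protein, rose by 0.97 ± 0.20 but was above background in none of the 6 samples.

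Of the 16 measured type I interferon effectors, 15 were higher in CRT, 13 rose and 0 fell, and the median difference was 1.82, or 1.5 after median centring. Over all probes 597 of 773 were higher, with a median of 0.26. The 3 members that did not pass are named here after their values were seen. Sp100, another nuclear body gene, was at 0.68 ± 0.20 (adjusted p = 0.103), the scramblase gene Plscr1 at -0.02 ± 0.22, and Siglec1, a macrophage lectin not above background, at 0.23 ± 0.55. Averaged over the 12 called effectors above background, samples read 5.91, 6.79 and 6.60 in Nontreated and 8.24, 8.65 and 8.63 in CRT. CRT replicate 1, the deepest of its group, was the lowest CRT sample for 11 of these 12 genes.

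Genes of the machinery that sends the interferon signal did not pass the test. Irf8 was at -0.35 ± 0.16, Irf2 at 0.14 ± 0.18 and the feedback inhibitor Socs1 at 0.38 ± 0.47. The interferon gene Ifna1 was not above background in any of the 6 samples. Of 11 receptor and signalling genes 10 were higher and 0 passed, with a median of 0.14 that turned to -0.18 under median centring. Among 5 sensors of nucleic acids and microbial patterns 0 passed, with Tbk1, a kinase upstream of interferon genes, at 0.50 ± 0.20 and the RNA sensor gene Tlr7 at 1.28 ± 0.52. Tlr7 was above background in 1 of 3 controls and 3 of 3 CRT samples.

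Genes induced mainly by interferon gamma had a median difference of 0.73, or 0.40 after median centring, over 10 members, of which only 4 were above background. Those past the threshold, Gbp2b and the tryptophan-degrading enzyme gene Ido2 (1.89 ± 0.35), both lay below background in every sample. Gbp2b is counted among the type I interferon effectors as well. Gbp2, a relative of Gbp2b, read 6.94, 7.58 and 7.23 in Nontreated and 7.87, 8.43 and 8.22 in CRT, at 0.92 ± 0.24 (adjusted p = 0.071). Cd274, which encodes PD-L1, read 8.24, 8.10 and 8.45 against 8.86, 8.87 and 9.39, at 0.78 ± 0.24 (adjusted p = 0.141). Both separated the groups without passing by limma. Ifng itself overlapped, with 10.91, 11.55 and 10.78 in Nontreated and 11.59, 11.29 and 11.11 in CRT (0.25 ± 0.35).

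**Figure D3:**
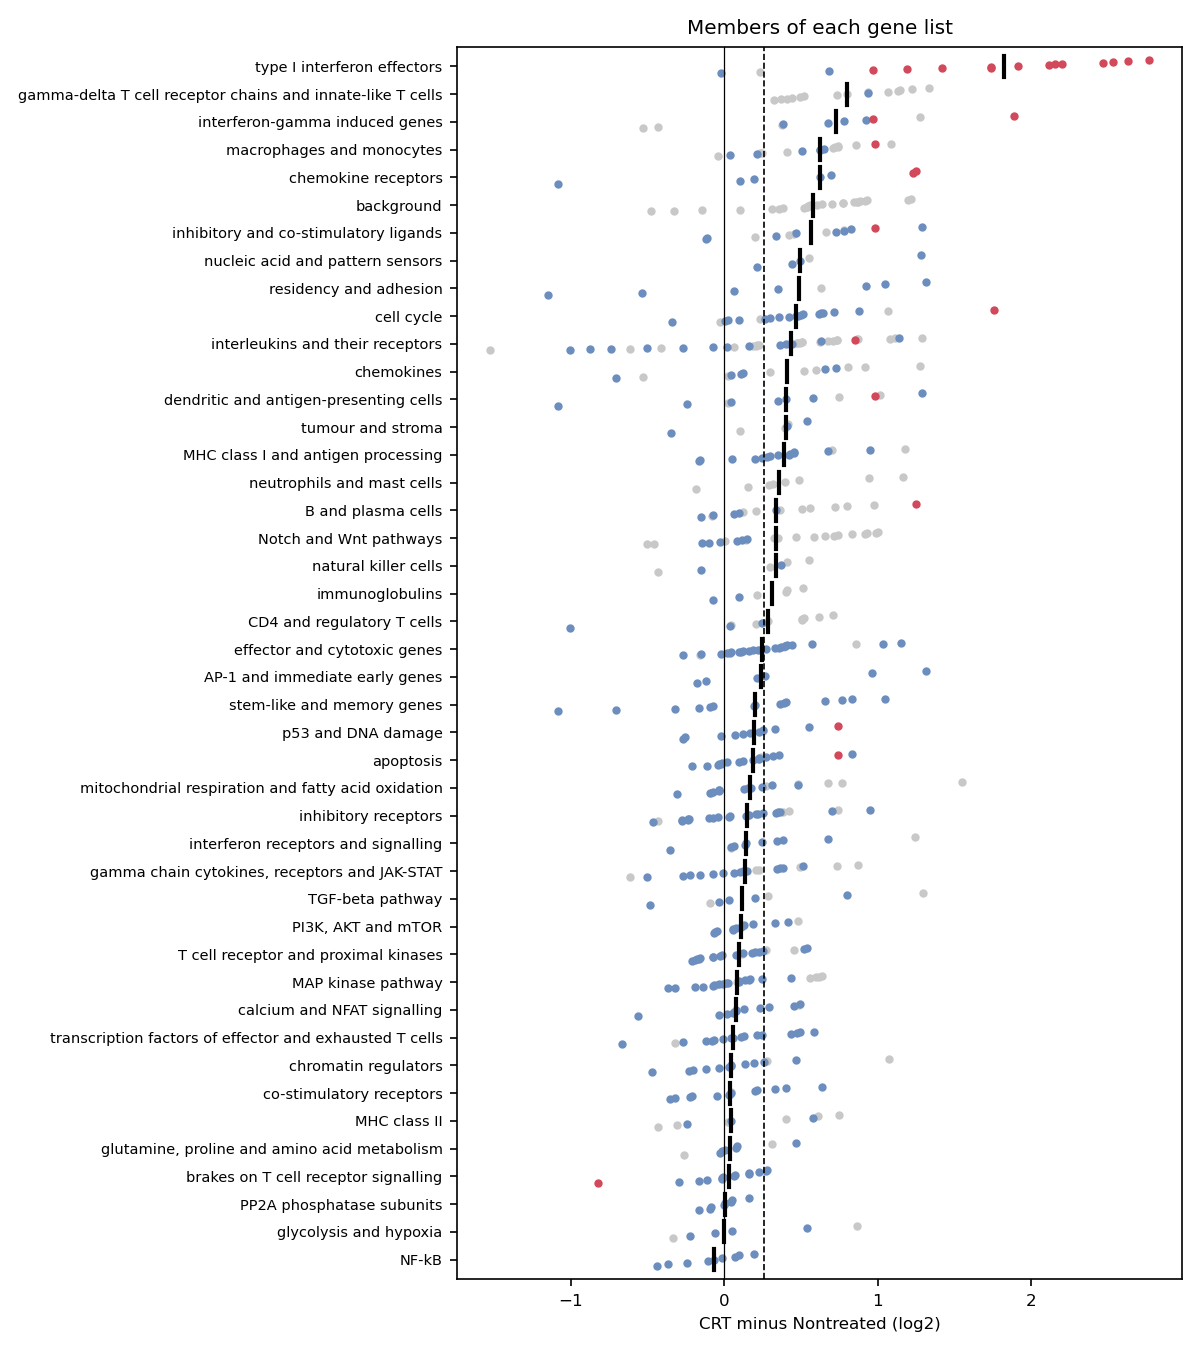
Difference between CRT and Nontreated means (x axis, log2) of each member of 43 gene lists and of the 26 background probes (rows), sorted by list median. Points are probes, grey where not above background, blue where above it and red where the adjusted p was under 0.05. Black ticks are list medians, the solid line is 0 and the dashed line is the median of all probes, 0.26. The type I interferon effectors reach a median of 1.82, and the next median, 0.80, belongs to a list with 1 of 15 members above background.

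Of 7 chemokine receptors, Cxcr3 and Ccr1 rose, and neither passed after median centring (adjusted p = 0.0727 each). Cxcr3, the receptor for the interferon-induced chemokines CXCL9, CXCL10 and CXCL11, read 7.15, 7.66 and 7.23 in Nontreated and 8.60, 8.78 and 8.36 in CRT. Every CRT sample lay above every control, and Cxcr3 rose 2.35-fold (1.23 ± 0.22, adjusted p = 0.0162 by limma). Ccr1, a receptor for inflammatory CC chemokines, read 4.61, 4.02 and 4.33 against 5.38, 5.45 and 5.87. It rose by 1.25 ± 0.24 (adjusted p = 0.0197) and was above background in 2 of 3 controls. Ccr2, at 0.62 ± 0.28, also separated the groups without passing.

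Ccr7, which guides cells to lymph nodes, went the other way. It read 11.33, 10.64 and 10.71 in Nontreated and 10.11, 10.04 and 9.30 in CRT, without overlap (-1.08 ± 0.28, adjusted p = 0.0772). None of the 7 chemokine receptors fell by the test, and their median was 0.62, or 0.30 after median centring. Chemokine genes, of which 6 of 14 were above background, had 0 calls. Xcl1, which attracts cross-presenting dendritic cells, read 9.90, 10.09 and 9.40 against 9.65, 9.03 and 8.60 and overlapped.

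Cd86, a ligand of CD28 and CTLA-4, differed little within each group. It read 6.90, 7.00 and 7.00 in Nontreated and 7.91, 8.08 and 7.85 in CRT, and rose 1.97-fold (0.98 ± 0.17, adjusted p = 0.0151 by limma). The SD was 0.06 in Nontreated and 0.12 in CRT, and picking genes by p favours such small spreads. With median centring Cd86 was at 0.66 and did not pass (adjusted p = 0.0728 by limma). Its relative Cd80 read 7.17, 5.46 and 5.86 against 7.69, 7.42 and 7.24, at 1.29 ± 0.38 (adjusted p = 0.116), since Nontreated replicate 1 lay close to CRT. Tnfsf9, the ligand of 4-1BB, was at 0.83 ± 0.21 (adjusted p = 0.0646) and Lgals9, the TIM-3 ligand galectin-9, at 0.73 ± 0.20 (0.0949). Of 14 inhibitory and co-stimulatory ligands 12 were higher and 1 rose, with a median of 0.57, or 0.24 after median centring.

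Among cytokine receptors, Il10ra, the ligand-binding chain of the interleukin-10 receptor, read 8.12, 8.22 and 8.03 in Nontreated and 8.82, 9.21 and 8.90 in CRT. Il10ra rose 1.80-fold (0.85 ± 0.16, adjusted p = 0.0197 by limma) with no overlap. Il12rb1, a chain shared by the receptors for interleukins 12 and 23, read 6.32, 6.84 and 6.94 against 7.32, 7.76 and 8.44. At 1.14 ± 0.29 its adjusted p was 0.071, although the groups were apart. Il21r was at -0.50 ± 0.22 and Il7r at 0.36 ± 0.32. Of 38 interleukins and their receptors 1 rose and 0 fell, and 14 were above background.

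Casp8 starts apoptosis downstream of death receptors and also checks necroptosis. It read 8.87, 9.06 and 9.13 in Nontreated and 9.53, 9.80 and 9.95 in CRT, a rise of 0.74 ± 0.17 (adjusted p = 0.0461 by limma). The other 18 of 19 apoptosis genes did not pass. The survival gene Bcl2 read 7.44, 6.01 and 7.19 against 7.26, 7.94 and 7.94, so that it overlapped at 0.83 ± 0.46. Fasl, the ligand of the death receptor FAS, was at 0.27 ± 0.20.

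Chek1 encodes the checkpoint kinase that halts the cell cycle when replication stalls. It read 5.15, 5.24 and 5.17 in Nontreated and 5.90, 6.01 and 5.87 in CRT, with SDs of 0.05 and 0.08. Picking genes by p favours such small spreads, and Chek1 passed in 9 of 23 alternative settings. In Nontreated replicate 3 it lay close to the background level of 4.96. The rise was 0.74 ± 0.17 (adjusted p = 0.0386 by limma), and Chek1 alone passed among 12 p53 and DNA damage genes, whose median was 0.20, or -0.13 after median centring. Upstream damage kinases Atm and Atr were at 0.33 ± 0.19 and 0.26 ± 0.25. The p53 target Sesn2 was at 0.55 ± 0.31 and overlapped.

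Cell cycle genes were higher in 19 of 21 cases with a median of 0.46, or 0.14 after median centring. The only member past the threshold, Ccnb3 (1.76 ± 0.35), was below background in all 6 samples. Mcm5, a subunit of the replicative helicase, read 8.03, 8.36 and 8.36 in Nontreated and 8.89, 8.90 and 8.89 in CRT (0.65 ± 0.22, adjusted p = 0.171). The S phase factor E2f2 read 5.62, 6.29 and 5.76 against 6.31, 6.92 and 7.08 (0.88 ± 0.26, adjusted p = 0.106). Ttk, a spindle checkpoint kinase, was at 0.63 ± 0.20. In each of these 3 genes the groups were apart, yet none passed by limma.

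Nfe2l2, the gene of the oxidative stress factor NRF2, read 6.20, 6.36 and 6.40 in Nontreated and 7.27, 7.23 and 6.93 in CRT. Nfe2l2 rose by 0.82 ± 0.18 (adjusted p = 0.0371 by limma). Of 6 glycolysis and hypoxia genes, 18 genes of respiration and fatty acid oxidation and 8 of amino acid metabolism, 0 passed. Above background were 4, 12 and 6 of them. Their medians were -0.003, 0.17 and 0.04, against 0.26 over all probes, or -0.33, -0.16 and -0.28 after median centring. Ldha, which makes lactate, was at -0.22 ± 0.17, and Slc7a5, a carrier of large amino acids, at 0.47 ± 0.26.

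Ptpn6 was the only decrease past the threshold. It read 8.91, 9.02 and 9.23 in Nontreated and 8.27, 8.24 and 8.19 in CRT, with an SD of 0.04 within CRT. It fell by 0.82 on the log2 scale, which is 1.76-fold lower (SE 0.19, adjusted p = 0.0447 by limma). Without Nontreated replicate 3, its highest control, the difference was -0.73 with an adjusted p of 0.0571 by limma. Ptpn6 passed in 12 of 23 alternative settings, and in none that left out 1 of the 6 samples compared. The other 13 of 14 brakes on T cell receptor signalling did not pass, among them the related phosphatase gene Ptpn11 (-0.16 ± 0.16), Ptpn22 (0.22 ± 0.22) and Dgka, which removes diacylglycerol (0.28 ± 0.23). Among 20 genes of the receptor and its proximal kinases 0 passed and the median was 0.10, or -0.23 after median centring. The Src kinase gene Fyn was at -0.19 ± 0.16, and the adaptor gene Grap2 at 0.52 ± 0.21.

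No inhibitory receptor passed the test, which at the panel's shares of 2.98% higher and 0.129% lower does not set this list apart. Of 26 measured, 16 were higher and 10 lower, with a median of 0.15, or -0.18 after median centring. Pdcd1, the gene of PD-1, read 11.59, 11.84 and 12.15 in Nontreated and 11.41, 11.37 and 11.97 in CRT (-0.28 ± 0.25). Lag3 read 10.82, 11.20 and 11.32 against 10.69, 10.73 and 11.63 (-0.10 ± 0.27). Havcr2, the gene of TIM-3, read 8.95, 9.38 and 9.11 against 9.37, 9.46 and 9.71 (0.37 ± 0.19). All 3 overlapped between the groups. Tigit was at -0.24 ± 0.21, Ctla4 at 0.16 ± 0.19 and Entpd1, the ectonucleotidase CD39, at 0.25 ± 0.24, and the last 2 were below 0 under median centring and above 0 under quantile normalization.

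Vsir, which encodes the inhibitory molecule VISTA, came nearest to the threshold in that list. It read 8.98, 9.21 and 8.82 in Nontreated and 9.53, 9.66 and 9.93 in CRT (0.70 ± 0.17, adjusted p = 0.0631). Cd226, an activating receptor that competes with TIGIT for its ligands, read 8.71, 8.72 and 8.32 against 9.23, 9.11 and 9.31 (0.63 ± 0.17, adjusted p = 0.0838). Both separated the groups. The other co-stimulatory receptors included Cd28 at 0.40 ± 0.19, Cd27 at -0.32 ± 0.19 and Tnfrsf9, the gene of 4-1BB, at -0.21 ± 0.20. Of 14 such receptors 0 passed, with a median of 0.04 that became -0.28 after median centring.

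Tox, the factor that maintains exhaustion, was lower in every CRT sample. It read 7.75, 7.63 and 7.53 in Nontreated and 7.00, 6.86 and 7.04 in CRT (-0.67 ± 0.19, adjusted p = 0.103 by limma). With quantile normalization it was at -0.87, and it passed in 4 of 23 alternative settings. The other transcription factors of effector and exhausted cells included Nfatc2 at 0.49 ± 0.20, Prdm1, the gene of BLIMP-1, at 0.47 ± 0.21, Id2 at 0.43 ± 0.23 and Eomes at 0.58 ± 0.43. Of 17 in this list 0 passed and the median was 0.06, or -0.27 after median centring.

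Stem-like and memory genes went in both directions, with 9 of 15 higher and 0 past the threshold. Tcf7, the gene of TCF-1, read 7.85, 7.35 and 7.27 in Nontreated and 8.35, 7.59 and 7.70 in CRT, and overlapped (0.39 ± 0.33). Its partner Lef1 was at 0.65 ± 0.29, and Slamf6, a surface marker of the subset, at -0.16 ± 0.21. Klf2, which drives genes of recirculation, read 5.89, 5.24 and 5.25 against 6.05, 6.12 and 6.51 (0.76 ± 0.27, adjusted p = 0.2).

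Killing genes did not pass the test. Gzmb, the gene of granzyme B, read 9.31, 10.55 and 9.85 in Nontreated and 10.63, 11.04 and 11.48 in CRT, with the lowest CRT sample just above the highest control. Gzmb was 2.22-fold higher (1.15 ± 0.33, adjusted p = 0.103 by limma). Tnf read 5.95, 6.83 and 6.71 against 7.53, 7.18 and 7.89 (1.04 ± 0.36, adjusted p = 0.195). The pore-forming gene Prf1 was at 0.40 ± 0.23 and overlapped. Of 27 effector and cytotoxic genes 23 were higher and 0 passed, with a median of 0.25 that turned to -0.08 under median centring.

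Residency and adhesion genes had differences of both signs, and 0 of 8 passed. Cd69, an early activation marker that also keeps cells in tissue, read 6.65, 7.44 and 6.59 in Nontreated and 7.99, 8.28 and 8.36 in CRT (1.32 ± 0.35, adjusted p = 0.083). Itgb3, an integrin beta chain, was at 0.93 ± 0.26 (adjusted p = 0.103). Itgae, the CD103 chain that binds epithelial E-cadherin, read 6.14, 6.30 and 5.46 against 5.86, 4.01 and 4.59. At -1.15 ± 0.50 Itgae had the most negative difference among probes above background, but the groups overlapped and its adjusted p was 0.315. Only 1 of 3 CRT samples was above background for Itgae, so that its CRT mean partly lies within background. Zfp683, the gene of the residency factor HOBIT, was at -0.53 ± 0.40, also with 1 of 3 CRT samples above background.

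Several other probes above background had negative differences, and none of those given here passed by limma. Il13, a cytokine of type 2 immunity, was at -1.0 ± 0.34 and lay below background in all 3 CRT samples. Il1rl1, the interleukin-33 receptor, was at -0.87 ± 0.35, and at -0.44 with values floored at the highest background level of any sample. Its values thus lay partly below that level. Il1r2, a decoy receptor, was at -0.74 ± 0.32. Siglecf, at -0.94 ± 0.37, overlapped between the groups. Creb3l2, a transcription factor of the secretory pathway, was at -0.53 ± 0.35.

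Early response genes were uneven. Fos read 6.42, 7.47 and 6.46 in Nontreated and 8.42, 7.52 and 8.35 in CRT (1.31 ± 0.43, adjusted p = 0.149), with CRT replicate 2 near the highest control. Jun was at 0.97 ± 0.42, Junb at -0.17 ± 0.23 and Nr4a1, a gene switched on by antigen receptor signals, at 0.21 ± 0.32. Of the 9 NF-kB genes 6 were lower and 0 passed, with Nfkb1 at -0.44 ± 0.21 and without overlap. Among 13 calcium and NFAT genes 0 passed, with Itpr1, a calcium release channel, at -0.56 ± 0.23 and Ppp3cc, a calcineurin subunit, at 0.46 ± 0.16.

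Genes of antigen presentation by class I were higher in 14 of 16 cases with a median of 0.39, or 0.06 after median centring, and 0 passed. H2-D1, a classical heavy chain, read 11.75, 11.91 and 12.01 in Nontreated and 12.13, 12.20 and 12.62 in CRT (0.43 ± 0.19). The immunoproteasome gene Psmb9 was at 0.35 ± 0.15. Class I probes can also take up RNA of close relatives.

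Transcripts of other cell types were also measured. Macrophage and monocyte genes were higher in 16 of 17 cases with a median of 0.62, or 0.30 after median centring, against 0.58 for the background probes. Their summed normalized counts ranged from 876.8 to 1105.6 in Nontreated and from 1256.9 to 1700.8 in CRT. The list includes Cd86, Cd68 at 0.65 ± 0.18 (adjusted p = 0.0949), Ccr2 and Tyrobp at 0.62 ± 0.39, while Csf1r and Cd14 were not above background in any of the 6 samples. The part of such cells in the rise of Cd86 or Ccr1 was not tested, and in a bulk sample more cells of a type cannot be told apart from more RNA per cell.

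Of 11 dendritic and antigen-presenting cell genes 9 were higher, with a median of 0.40, or 0.08 after median centring, and Cd86 alone passed. Their summed normalized counts ranged from 2375.7 to 3831.1 in Nontreated and from 1361.5 to 3007.1 in CRT. Such sums follow the most abundant members, among them Ccr7 (-1.08), which T cells express as well. They therefore do not show the direction of most genes in the list. H2-Aa, a class II chain, read 8.86, 8.19 and 7.80 against 9.41, 8.72 and 6.84 and differed by 0.04 ± 0.57. B and plasma cell genes summed to 476.2 to 608.0 in Nontreated and 558.3 to 612.1 in CRT. The one past the threshold, Blk (1.25 ± 0.29, adjusted p = 0.0461), was below background in all 6 samples. Of 15 probes for gamma-delta receptor chains and innate-like T cells all were higher, with a median of 0.80, or 0.48 after median centring, but 1 was above background. Tumour or stroma genes, natural killer genes and CD4 or regulatory T cell genes had 0 members past the threshold, with 3 of 6, 2 of 6 and 3 of 11 above background. Neutrophil and mast cell genes had 0 of 8 above background.

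The other radiotherapy modes show where CRT stood, with the reminder that they share the same 3 controls and that the genes were picked by their CRT values. Of the 23 probes that rose in CRT, the SRT mean lay between Nontreated and CRT in 23 and the SRT-like mean in 22, while CRT had the highest mean of the 4 groups in 328 of all 773 probes. Ifit3/3b averaged 7.54 ± 0.62 in Nontreated, 9.01 ± 0.58 in SRT, 9.33 ± 0.52 in SRT-like and 10.07 ± 0.27 in CRT (SD, n = 3 each). Cxcr3 averaged 7.35 ± 0.27, 7.91 ± 0.30, 8.01 ± 0.21 and 8.58 ± 0.22 in the same order. Ptpn6 averaged 9.05 ± 0.16, 8.64 ± 0.26, 8.60 ± 0.23 and 8.23 ± 0.04. Ccr1 did not follow that order, with 4.32 ± 0.29, 5.54 ± 0.38, 5.77 ± 0.15 and 5.57 ± 0.26.

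**Figure D4:**
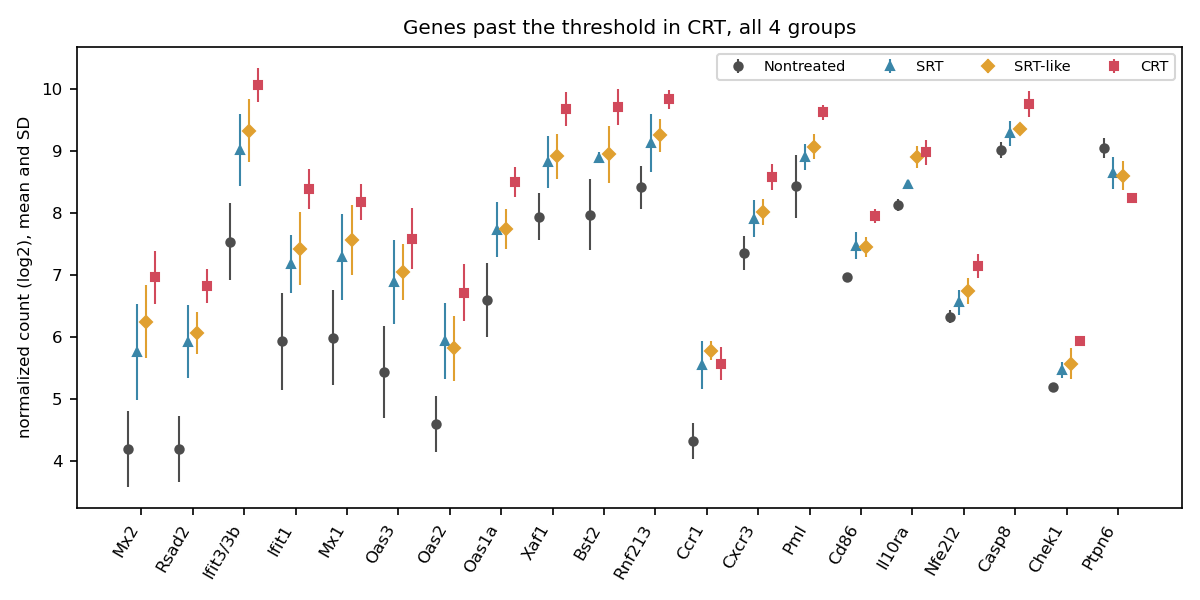
Normalized counts on the log2 scale (y axis) of the 20 probes past the threshold and above background (x axis), as group mean with SD over 3 samples for Nontreated, SRT, SRT-like and CRT. SRT and SRT-like means lie between Nontreated and CRT for most genes, and Ccr1 is higher in SRT-like than in CRT.

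In the direct tests 0 of 773 probes (0%) passed between CRT and SRT by limma, where the smallest adjusted p was 0.564 and 51 probes (6.6%) had an unadjusted p under 0.05. Between CRT and SRT-like 0 of 773 (0%) passed as well, with a smallest adjusted p of 0.369 and 76 probes (9.83%) at an unadjusted p under 0.05. For Ifit3/3b the difference between CRT and SRT was 1.06, with a 95% interval from 0.20 to 1.91, and between CRT and SRT-like 0.74, from -0.12 to 1.59. For Cxcr3 the differences were 0.67 (0.19 to 1.16) and 0.57 (0.09 to 1.06). These intervals are not adjusted for the number of probes, and neither shows that the modes act alike.

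Ccr7 had the smallest unadjusted p against SRT and Zfp683 the smallest against SRT-like, with Itgae among the 3 smallest in both tests. Ccr7 was lower in CRT than in SRT by a difference of -1.15 (-1.77 to -0.52), while SRT and SRT-like averaged 10.96 ± 0.10 and 10.80 ± 0.38, close to the Nontreated mean of 10.89 ± 0.38. Itgae averaged 4.82 ± 0.95 in CRT, 6.51 ± 0.85 in SRT and 7.01 ± 0.25 in SRT-like, with differences of -1.69 (-2.81 to -0.58) and -2.19 (-3.31 to -1.08). Zfp683 differed from SRT-like by -1.83 (-2.71 to -0.95) and Xcl1 by -1.13 (-1.76 to -0.50). Other probes with small p-values against SRT were Gzmd, a granzyme, at -0.87 (-1.45 to -0.28), the aryl hydrocarbon receptor gene Ahr at -0.60 (-0.98 to -0.22) and Nfe2l2 at 0.59 (0.18 to 0.99). Siglech, a lectin of plasmacytoid dendritic cells, was higher than in SRT-like by 1.60 (0.63 to 2.57), where 1 of 3 SRT-like samples was above background. Blk was higher than in SRT-like by 1.05 (0.41 to 1.70), below background.

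The number of calls rested on single samples. Without CRT replicate 2 it was 0 (75 probes had an unadjusted p under 0.05), without CRT replicate 3 it was 6, without Nontreated replicate 1 it was 3 and without Nontreated replicate 2 it was 15. Without Nontreated replicate 3, the shallow control, 58 probes passed, and 23 of the 24 were among them. Of the 35 that passed only then, 31 were not above background. The 4 above it, named after their values were seen, were Il12rb1, the sialic acid lectin gene Cd33, the chemokine gene Ccl12 and the chemerin receptor gene Cmklr1. With median centring 12 of the 24 passed, and these were Rsad2, Mx1, Mx2, Ifit1, Ifit3/3b, Oas1a, Oas2, Oas3, Xaf1, Rnf213, Ptpn6 and Ccnb3. Among those above background, Cd86, Cxcr3, Ccr1, Bst2, Pml, Il10ra, Casp8, Chek1 and Nfe2l2 were not past the threshold in that setting, with adjusted p-values from 0.0588 to 0.308.

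**Figure D5:**
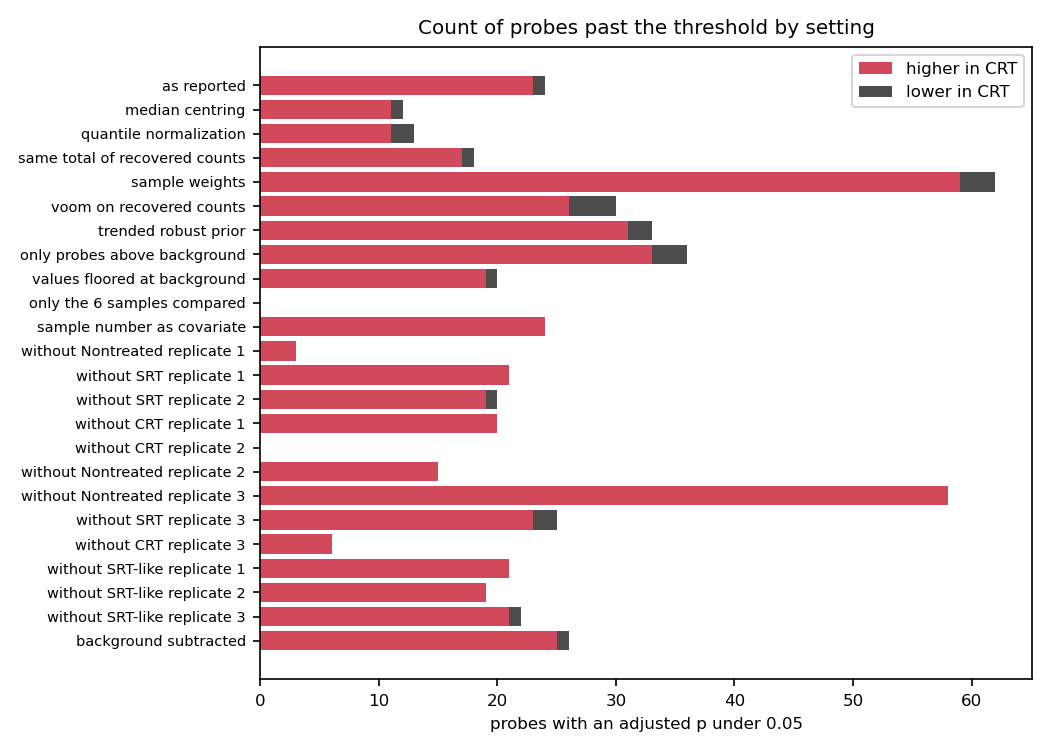
Number of probes with an adjusted p under 0.05 (x axis) in CRT against Nontreated under each setting (rows), split into higher (red) and lower (dark grey) in CRT. The count ranges from 0, without CRT replicate 2 or with only the 6 samples compared, to 62 with sample weights, against 24 as reported.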

How the data were processed

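CD8+ T cells were measured in 12 samples with 773 NanoString probes. The deposited log2 values are probe counts normalized per sample by the authors in ROSALIND, per the labels. The labels name no version, background handling or factor per sample. Values of a sample were whole multiples of 1 step (tolerance 0.1), which gave molecule counts and totals. Groups came from the sample labels, and replicates were numbered within groups. Group means of all 4 groups were fitted to the log2 values with limma 3.58.1 in R 4.3.3 (lmFit and eBayes, 2-sided, Benjamini-Hochberg over 773 probes, threshold 0.05), after tests on simulated data. Gene names follow the panel, and 756 matched RefSeq symbols. No probe was filtered out. Genes named are those past the threshold, the next 10 by p, the 12 largest differences in each direction above background, up to 6 per list by p, the 5 smallest p per direct test, and fixed T cell genes and markers. The members and lists were chosen with earlier results of these data known. Alternatives covered scaling, weights, model, background, samples included and each left-out sample. Some genes of the panel are not reported here.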

Additional observations from a re-analysis of the deposited data

How the results depend on the processing

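Against 24 calls as reported, CRT against Nontreated gave 12 with median centring (11 higher, 1 lower), 13 with quantile normalization (11 higher, 2 lower) and 62 with sample weights. With only the 6 samples compared it gave 0 by limma (94 at an unadjusted p under 0.05). Leaving out 1 sample gave 0 to 58. The other settings gave 18 to 36 calls, including 26 with background subtracted, which was chosen after seeing the data. CRT against SRT gave 0 by limma in every setting run. CRT against SRT-like gave 8 with the sample number as a covariate and 0 to 1 when 1 sample was left out. The cause of these changes was not tested. No called probe changed sign in any setting run. Over the called probes, 370 probe and setting pairs kept the call and 178 lost it. No paired analysis was possible because the groups share no sample numbers. Shallow samples had the higher background, and 319 of 773 probes were not above it.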
